A study of Mus musculus with 12 samples.

Results

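MHC class II molecules are heterodimers that display peptides from endocytosed proteins to CD4 T cells, and in mice they are made mainly by B cells, dendritic cells, macrophages and thymic epithelium. The invariant chain, encoded by Cd74, fills the groove of new class II dimers and guides them to endosomes, where the H2-DM dimer exchanges its last fragment for peptide and the H2-O dimer restrains H2-DM. The transactivator Ciita switches on the peptide-displaying chains and Cd74. It binds to a complex of factors that sits on the W, X and Y boxes of their promoters. Mature mouse T cells are not known as a major source of the transcripts of those chains and Cd74. The genes were chosen by name for these roles: H2-Aa and H2-Ab1, the alpha and beta chains of the A molecule; H2-Eb1, the beta chain of the E molecule; Cd74; H2-DMa and H2-DMb1; H2-Oa and H2-Ob; and Ciita. Of these 9 genes, 8 had a transcript cluster of their own on the array, out of 19938 genes measured in all. The 9th, H2-DMb1, shares its transcript cluster with H2-DMb2, so no value is given for it.

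The samples were CD8+CD28low T cells of C57Bl/6 mice, a CD8 subset described as regulatory and low in CD28, the costimulatory receptor. There were 3 arrays in each of 4 groups: activated AIRE ko, activated wild type, native AIRE ko and native wild type (KO and WT below). AIRE is the transcriptional regulator that makes thymic epithelium display tissue-restricted proteins to developing T cells. Native cells were freshly isolated, and activated cells had spent 96 h in culture beside allogenic antigen-presenting cells, with an antibody to CD3, so both activated groups met cells of another strain that carry class II molecules themselves. The number of mice per array and the sort are not stated in the labels, nor is it whether the added antigen-presenting cells were removed before RNA was taken.

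Levels are RMA values on a log2 scale. The background of an array was set at the 95th percentile of its 1027 olfactory receptor genes and ran from 6.12 to 7.31. "At background" below means that no array of a group exceeded it. The high end belonged to activated KO array 3, which stood apart from the other 11: its interquartile range was 2.19 against 2.45 to 2.89. Values without it stand beside the KO activation results of the called class II genes. Outside the class II group they are given only as bounds for Lyz2, Itgam and Cd209a, so the other KO falls below include that array. The T cell label was borne out by Cd3e and Cd3g, chains of the T cell receptor complex, at 12.41 to 12.91 and 12.10 to 13.38 on all 12 arrays, and Cd4 was at background in all 4 groups. Cd28 RNA lay between 9.98 and 11.97, well above background. Aire itself was at background in all 4 groups (5.55 to 5.92), so the arrays give no check of genotype. Xist, the RNA of the inactive X chromosome in female cells, was 4.98 on activated KO array 1 and 5.26 on native KO array 1, and 9.34 to 11.47 on the other 10 arrays. By this RNA the sex of the cells differed within KO but not within WT, so sex is partly mixed with genotype. Native KO array 1 was also the highest native array for H2-Aa, H2-Ab1, H2-Eb1 and Cd74. The part of sex in the genotype differences was not tested.

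Of the 9 genes, 6 had an entry in the RefSeq promoter table of GRCm38.p6, which covers a window around each gene start, most of it upstream. H2-Ab1, Cd74 and Ciita are named only. The stretches that hold the X box core GCAAC followed by the Y box core ATTGG are shown for 2 reasons. Such elements are known to switch on the peptide-displaying chains together, and the genes that carry them took different courses below. Capitals mark the 2 cores, and each stretch reads 5′ to 3′ on the strand of its gene.
H2-Aa, chr17:34287859-34287916, minus strand: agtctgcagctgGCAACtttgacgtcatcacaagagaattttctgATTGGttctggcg
H2-Eb1, chr17:34305764-34305820, plus strand: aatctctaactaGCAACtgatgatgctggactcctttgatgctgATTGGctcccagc
H2-Oa, chr17:34092291-34092348, plus strand: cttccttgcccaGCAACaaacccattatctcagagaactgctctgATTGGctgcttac
H2-Ob, chr17:34238806-34238860, plus strand: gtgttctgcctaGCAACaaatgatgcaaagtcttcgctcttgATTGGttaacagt

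The cores were 28 bases apart in H2-Aa and H2-Oa, 27 in H2-Eb1 and 25 in H2-Ob, and the Y core ended 38 to 54 bases before the gene start. GCAAC followed by ATTGG at 15 to 35 bases on the same strand, read on both strands, occurred in 1.02% of all 32851 promoters of the same length. That spelling was chosen after the promoters were seen, because H2-Aa lacks the longer core AGCAAC. With AGCAAC, which contains GCAAC, the pair was found in H2-Eb1, H2-Oa and H2-Ob and in 0.332% of all promoters. AGCAAC alone occurred in 14.8% and ATTGG alone in 37.4%. The extended Y box CTGATTGG, which contains ATTGG, stood in H2-Aa, H2-Eb1 and H2-Oa and in 4.1% of all promoters, and H2-Ob lacked it. Of the 2 H2-DMa promoters listed, neither held the pair and 1 held ATTGG, as did the H2-DMb1 promoter. These matches describe letters in a window and say nothing of what is bound there.

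Native KO cells held the highest levels of H2-Aa, H2-Eb1 and Cd74 on any of the 12 arrays, but the 3 native KO arrays disagreed with each other and no gene of the group passed the test against native WT. After culture, H2-Aa and Cd74 were at background in both genotypes while H2-Ab1, the partner chain of H2-Aa and its neighbour on chromosome 17, was high on 5 of 6 arrays. H2-Ob, the beta chain of the modulator H2-O, fell strongly on activation in both genotypes. Ciita was at background everywhere. A lower level in a bulk sample can mean fewer cells that make an RNA or less RNA in each, and the 2 cannot be told apart here.

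**Figure D1:**
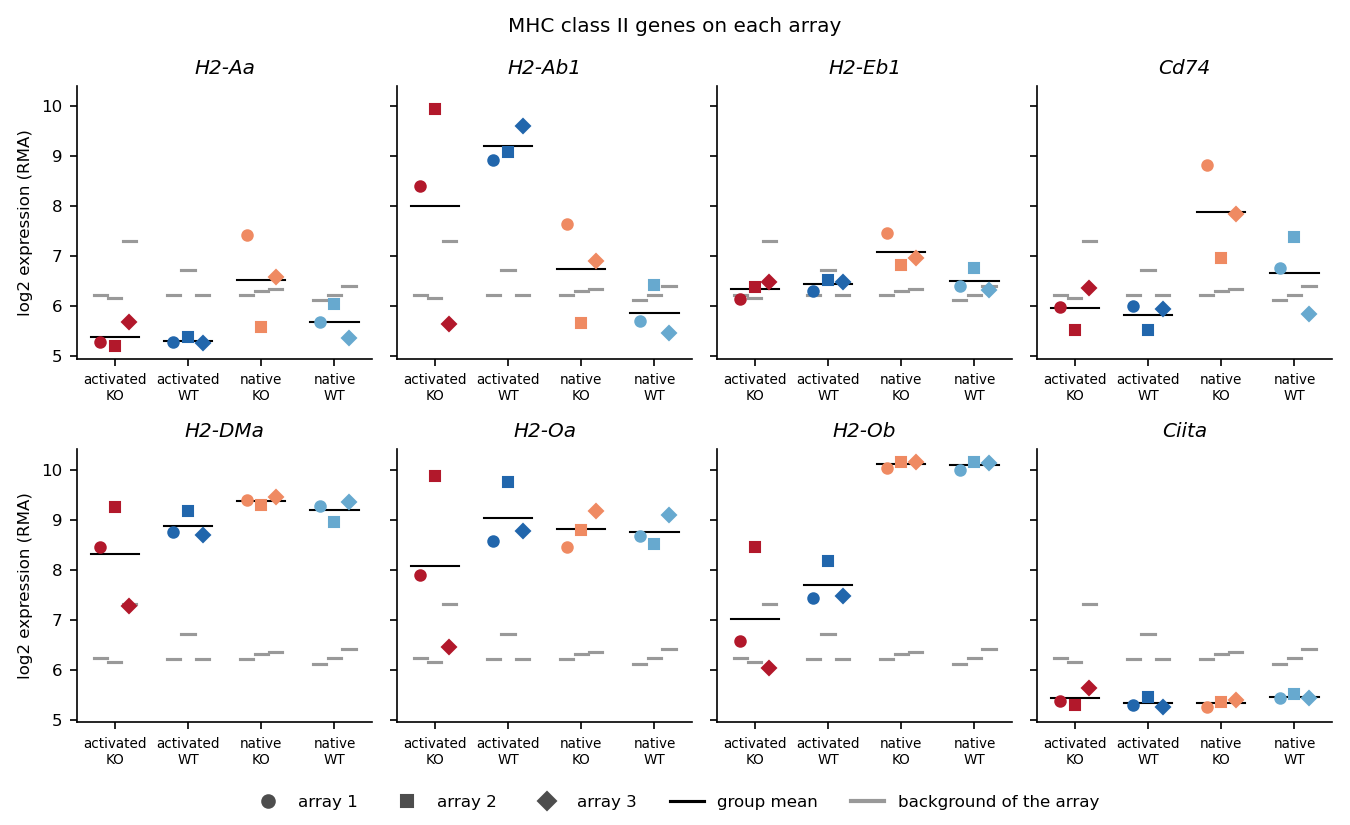
Log2 expression (RMA) of the 8 measured MHC class II genes on each array, in activated KO, activated WT, native KO and native WT cells; symbols mark arrays 1 to 3, black lines the group means and grey dashes the background of each array. H2-Ab1 lies at 8.41 to 9.95 on 5 of 6 activated arrays and at 5.64 on activated KO array 3, H2-Ob lies at 10.00 to 10.16 on the native arrays, and every Ciita value is under its array's background.

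The classical chains come first. H2-Aa (chromosome 17, 34282744 to 34287823, GRCm38.p6) had 5.28, 5.20 and 5.68 on the 3 activated KO arrays, 5.28, 5.38 and 5.26 in activated WT, 7.42, 5.58 and 6.57 in native KO, and 5.68, 6.04 and 5.36 in native WT. Only native KO arrays 1 and 3 rose above background, and native KO array 2 lay within the range of native WT. Native KO exceeded native WT by 0.83 ± 0.35 (SE, n = 3 arrays each) on the log2 scale, or by at least 0.27 with native WT held at background, with an unadjusted limma p of 0.0377 and an adjusted p of 1. The ordering of the group means was native KO, native WT, activated KO, activated WT, and the last 3 were all at background, so they have no order among themselves.

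H2-Ab1 (chromosome 17, 34263227 to 34269418) took a different course. Its values were 8.41, 9.95 and 5.64 in activated KO, 8.92, 9.08 and 9.60 in activated WT, 7.64, 5.66 and 6.90 in native KO, and 5.71, 6.42 and 5.46 in native WT. Activated WT stood clear of native WT, whereas activated KO held the highest value of the gene and, on array 3, a value under background. Activated WT exceeded native WT by 3.33 ± 0.85 on the log2 scale (adjusted p = 0.015), with only 1 of 3 native WT arrays above background. This call was lost without native WT array 1 (3.26, adjusted p = 0.0501), native WT array 3 (3.13, adjusted p = 0.0557) or activated WT array 3 (3.13, adjusted p = 0.0565), with a difference above 3 each time. In KO cells the activation difference was 1.27 ± 0.85 (adjusted p = 0.384), and it turned on single arrays: without activated KO array 3 it was 2.45 (adjusted p = 0.00722), and without array 2 it was 0.29 (adjusted p = 0.82). Activated KO minus activated WT was -1.20 ± 0.85 (adjusted p = 1), with -0.0153 without activated KO array 3 and -2.17 without array 2.

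H2-Eb1 (chromosome 17, 34305867 to 34316674) had 6.15, 6.38 and 6.49 in activated KO, 6.31, 6.52 and 6.48 in activated WT, 7.46, 6.83 and 6.96 in native KO, and 6.41, 6.77 and 6.33 in native WT. All 3 native KO arrays were above background, but only 1 activated KO array, 2 activated WT arrays and 2 native WT arrays were. Background therefore limits the sizes of the differences below. All 3 native KO arrays were above all 3 native WT arrays, by a margin of 0.06 between the nearest. The native difference was 0.58 ± 0.17 (1.5-fold), with an unadjusted limma p of 0.00627 and an adjusted p of 1. On activation H2-Eb1 fell by 0.75 ± 0.17 in KO cells (1.68-fold lower, adjusted p = 0.01), or by 0.82 without activated KO array 3, and differed by -0.07 ± 0.17 in WT cells (adjusted p = 0.874). The interaction of genotype and state, which tests the difference between these 2 changes, was -0.68 ± 0.25 with an unadjusted p of 0.0181 and an adjusted p of 1, so the changes were not shown to differ. The alpha chain that pairs with H2-Eb1 is encoded by H2-Ea, annotated as a transcribed pseudogene in this assembly, and H2-Ea was at background in all 4 groups (group means 5.71 to 5.80).

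Cd74 (chromosome 18, 60803849 to 60812652), the invariant chain, ran in parallel with H2-Aa. Its values were 5.97, 5.53 and 6.37 in activated KO, 6.00, 5.52 and 5.94 in activated WT, 8.83, 6.97 and 7.83 in native KO, and 6.76, 7.39 and 5.85 in native WT. Every activated array lay at background, and every native array except native WT array 3 lay above it. On activation in KO cells Cd74 fell by 1.92 ± 0.45 (adjusted p = 0.0103), or by at least 1.31 with activated KO held at background. Without activated KO array 3 it fell by 2.13 (adjusted p = 0.00855), or by at least 1.69. In WT cells the difference was -0.85 ± 0.45 (adjusted p = 0.247). Native KO exceeded native WT by 1.21 ± 0.45 (2.31-fold), with overlapping groups, an unadjusted limma p of 0.0204 and an adjusted p of 1.

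Arrays of the same number show how uneven that native difference was. Native KO minus native WT for Cd74 was 2.07 for arrays 1, -0.42 for arrays 2 and 1.98 for arrays 3. The same subtraction gave 1.73, -0.46 and 1.21 for H2-Aa, 1.93, -0.77 and 1.45 for H2-Ab1, and 1.05, 0.06 and 0.63 for H2-Eb1. For each of the 4 genes the difference was positive on arrays 1 and 3 and no higher than 0.06 on arrays 2. Native KO array 1 was also the native array low in Xist. Without it the native difference was 0.383 for H2-Aa, 0.416 for H2-Ab1, 0.394 for H2-Eb1 and 0.735 for Cd74. Without native KO array 2 the native difference was 1.30 for H2-Aa, 1.41 for H2-Ab1 and 1.66 for Cd74. Without native WT array 3 it was 0.802 for Cd74.

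Over the 6 native arrays these 4 genes varied together. H2-Aa and H2-Ab1 put the 6 arrays in the same order, with a Pearson r of 0.989, a Spearman rho of 1, and an r of 0.972 without the 2 arrays farthest from the median of H2-Aa. H2-Aa and Cd74 had an r of 0.959 and a rho of 0.943 (r = 0.898 without the 2 farthest arrays). H2-Eb1 and H2-Aa had an r of 0.916 and a rho of 0.829, which dropped to an r of 0.569 without those 2 arrays. These points share their arrays and their RNA, 3 come from each genotype, and the figures are a description. Over the 6 activated arrays the relation of H2-Aa to H2-Ab1 ran the other way (r = -0.948, rho = -0.829), with H2-Aa at background on all 6.

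The peptide editor and its modulators come next. H2-DMa (chromosome 17, 34119693 to 34139101), the alpha chain of H2-DM, had 8.44, 9.25 and 7.27 in activated KO, 8.75, 9.18 and 8.70 in activated WT, 9.40, 9.29 and 9.45 in native KO, and 9.26, 8.95 and 9.35 in native WT. It was above background on all arrays but activated KO array 3, and all 3 activated KO arrays lay under the native KO arrays. The activation difference in KO was -1.06 ± 0.37 (adjusted p = 0.0642), and without activated KO array 2 it was -1.52 (adjusted p = 0.0027) and without array 3 -0.534 (adjusted p = 0.11). In WT it was -0.31 ± 0.37 (adjusted p = 0.676).

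H2-Oa (chromosome 17, 34092379 to 34095234), the alpha chain of H2-O, had 7.89, 9.87 and 6.45 in activated KO, 8.56, 9.74 and 8.77 in activated WT, 8.46, 8.79 and 9.18 in native KO, and 8.67, 8.51 and 9.09 in native WT. The activated KO arrays enclosed all other values of the gene, with array 3 under its background. Its activation difference was -0.74 ± 0.65 in KO (adjusted p = 0.537) and 0.27 ± 0.65 in WT (adjusted p = 0.864). In KO the value was 0.0743 without array 3 of activated KO and -1.63 (adjusted p = 0.0175) without its array 2, so its sign depended on single arrays.

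H2-Ob (chromosome 17, 34238905 to 34245908), the beta chain of H2-O, was the steadiest of the group in native cells. It had 6.57, 8.46 and 6.02 in activated KO, 7.44, 8.16 and 7.48 in activated WT, 10.04, 10.16 and 10.14 in native KO, and 10.00, 10.15 and 10.14 in native WT. No activated array reached any native array. Activated KO array 3 lay under its background of 7.31, so its part in the size of the KO fall is uncertain. H2-Ob fell by 3.10 ± 0.46 in KO (8.56-fold lower, adjusted p = 0.000636) and fell by 2.40 ± 0.46 in WT (5.28-fold lower, adjusted p = 0.00318), and both calls held with each of the 12 arrays left out in turn. In KO the difference was -3.82 without activated KO array 2 and -2.60 without array 3 on the log2 scale. The 2 falls were not shown to differ (interaction -0.70 ± 0.65, adjusted p = 1). Native KO minus native WT was 0.02 ± 0.46 in the same fit, and the 6 native values lay between 10.00 and 10.16.

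Over the 6 activated arrays H2-Oa and H2-Ob put the arrays in the same order (r = 0.981, rho = 1, r = 0.977 without the 2 arrays farthest from the median of H2-Oa), and H2-DMa followed H2-Oa (r = 0.979, rho = 0.943). The highest array was activated KO array 2 for all 3 genes and the lowest was activated KO array 3, the array that stood apart. Activated KO minus activated WT was -0.55 ± 0.37 for H2-DMa, -0.95 ± 0.65 for H2-Oa and -0.68 ± 0.46 for H2-Ob, each with an adjusted p of 1. Without activated KO array 3 these became -0.0289, -0.143 and -0.183, and without activated KO array 2 they became -1.02, -1.85 and -1.40.

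Ciita (chromosome 16, 10480014 to 10531064), the transactivator, gave 5.37, 5.29 and 5.63 in activated KO, 5.28, 5.45 and 5.26 in activated WT, 5.25, 5.36 and 5.40 in native KO, and 5.43, 5.51 and 5.43 in native WT. It was at background on every array, including the 5 activated arrays on which H2-Ab1 was high and the native KO arrays on which H2-Aa and Cd74 were high. No order of its groups can be read from these values.

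**Figure D2:**
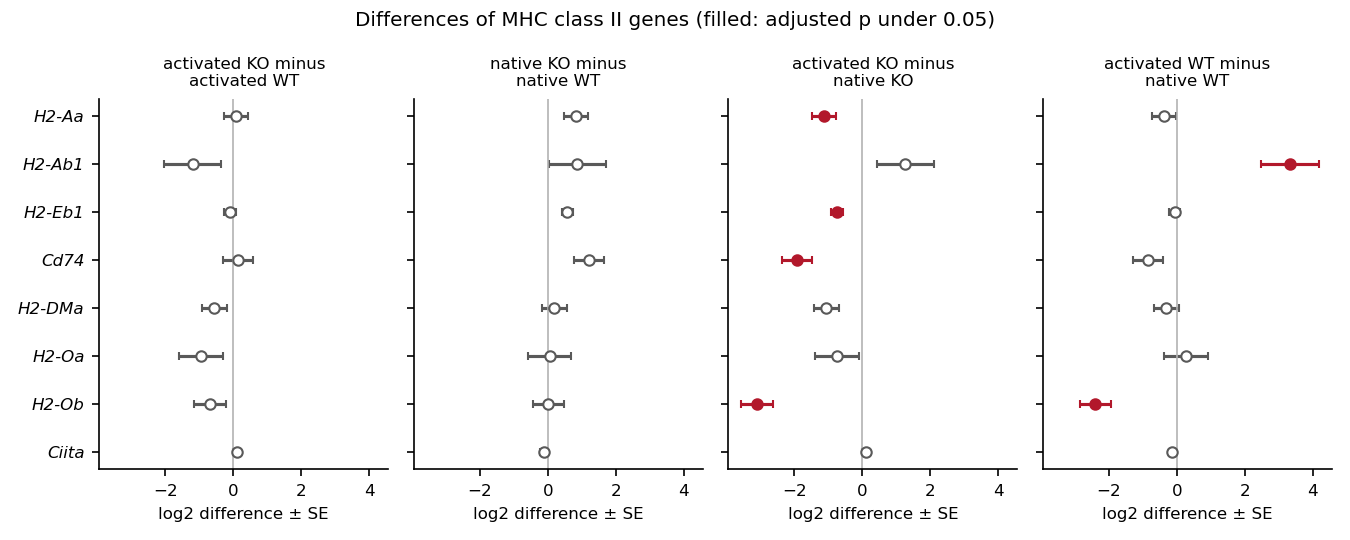
Log2 differences with their standard errors for the 8 MHC class II genes: activated KO minus activated WT, native KO minus native WT, activated KO minus native KO and activated WT minus native WT; filled red points have an adjusted p under 0.05. No point is filled in either genotype comparison, 4 are filled in KO activation (H2-Aa, H2-Eb1, Cd74 and H2-Ob, all lower) and 2 in WT activation (H2-Ab1 higher, H2-Ob lower).

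Counted together, 0 of the 8 measured genes were called higher or lower in native KO against native WT at an adjusted p under 0.05, where 0% of all 19938 genes were called in either direction by limma. At an unadjusted p under 0.05 there were 131 genes, 3 of them in this group (H2-Aa, H2-Eb1 and Cd74). The median native difference was 0.39 over the 8 genes and -0.02 over all genes. Of the 8, 7 were positive and 1 negative, beside 7999 positive and 11939 negative of all genes. These signs are not separate evidence, since H2-Aa, H2-Ab1, H2-Eb1 and Cd74 varied together over the native arrays. The signs of H2-Oa and H2-Ob turned in other fits. Groups did not overlap for 1 gene on the higher side, H2-Eb1, where 2.12% of all genes did so, and for 1 on the lower side, Ciita, where 4.92% did.

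Between activated KO and activated WT, again 0 of 8 genes were called, against 0% of all genes higher and 0% lower. At an unadjusted p under 0.05 limma gave 87 genes and none of the 8. The median difference was -0.33 over the 8 genes and -0.01 over all genes. None of the 8 separated without overlap, where 0.858% of all genes did so on the higher side and 0.888% on the lower. The interaction called 0 of 8 and 0% of all genes, with 86 genes at an unadjusted p under 0.05, H2-Eb1 among them. Its median was -0.75 over the 8 genes and 0.01 over all genes. H2-Ab1 had the most negative interaction (-2.07 ± 1.20, adjusted p = 1).

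In KO cells activation called 4 of 8 genes lower and 0 higher, where 11.4% of all genes were called lower and 8.72% higher. The 4 were H2-Ob, Cd74, H2-Eb1 and H2-Aa. For H2-Aa (-1.14 ± 0.35, adjusted p = 0.0409) no bound above 0 can be given over all arrays, since the mean background of the activated KO arrays (6.56) was above the native KO mean (6.52). Without activated KO array 3, whose background was 7.31, H2-Aa fell by 1.28 (adjusted p = 0.033), or by at least 0.33. The call for H2-Aa was lost in 11 of 21 alternatives, 8 of them fits that left out 1 array, with adjusted p from 0.0501 to 0.141, the highest without native KO array 1. Only the fits without native KO array 2, native WT array 2 or 3, or activated KO array 3 kept it. Groups did not overlap for 4 genes on the lower side, with H2-DMa in place of H2-Aa, against 17.0% of all genes, and for 0 on the higher side, against 13.8%. The median over the 8 genes was -0.90, and 0.02 over all genes.

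In WT cells 1 of 8 genes was called higher, H2-Ab1, and 1 lower, H2-Ob. Of all genes 9.72% were called higher and 10.9% lower, so the counts of these 8 lie near the background in WT. The groups of those same 2 genes did not overlap, against 17.5% of all genes higher and 23.4% lower. The median was -0.22 over the 8 genes and -0.02 over all genes. Alignment of the arrays by quantiles shifted the whole balance of calls, to 2643 higher and 2137 lower in KO against 1739 and 2263 without it, and to 2909 and 2052 in WT against 1937 and 2170. It changed no direction among the called genes of the group.

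The position of the genes gives a further view. Of the 8 genes, 6 (H2-Oa, H2-DMa, H2-Ob, H2-Ab1, H2-Aa and H2-Eb1) lie in a stretch of 252 kb on chromosome 17 that holds 13 measured genes. H2-Ob, H2-Ab1 and H2-Aa are next to each other among the measured genes, with 17318 bases between H2-Ob and H2-Ab1 and 13325 between H2-Ab1 and H2-Aa. On activation of WT cells H2-Ob fell, H2-Ab1 rose and H2-Aa was at background before and after. Between H2-DMa and H2-Ob lie Psmb8 and Psmb9, subunits of the immunoproteasome, and Tap1 and Tap2, the peptide transporter of the class I pathway. In activated WT against native WT, Psmb8 was higher by 0.82 ± 0.17 (adjusted p = 0.00506) and Psmb9 by 0.81 ± 0.24 (adjusted p = 0.0322), the second of which was lost in 5 of 12 fits that left out 1 array. Brd2, a bromodomain protein gene beside H2-DMa, fell by 0.53 ± 0.12 in KO and by 0.57 ± 0.12 in WT (adjusted p = 0.00868 and 0.00536). In all, 4 of the 13 genes were called lower and 0 higher in KO, and 2 lower and 3 higher in WT. Of all genes, 11.4% were called lower and 8.72% higher in KO, and 10.9% lower and 9.72% higher in WT. The 2 lower in WT lie near that share, and the 13 include the 6 class II genes already counted.

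**Figure D3:**
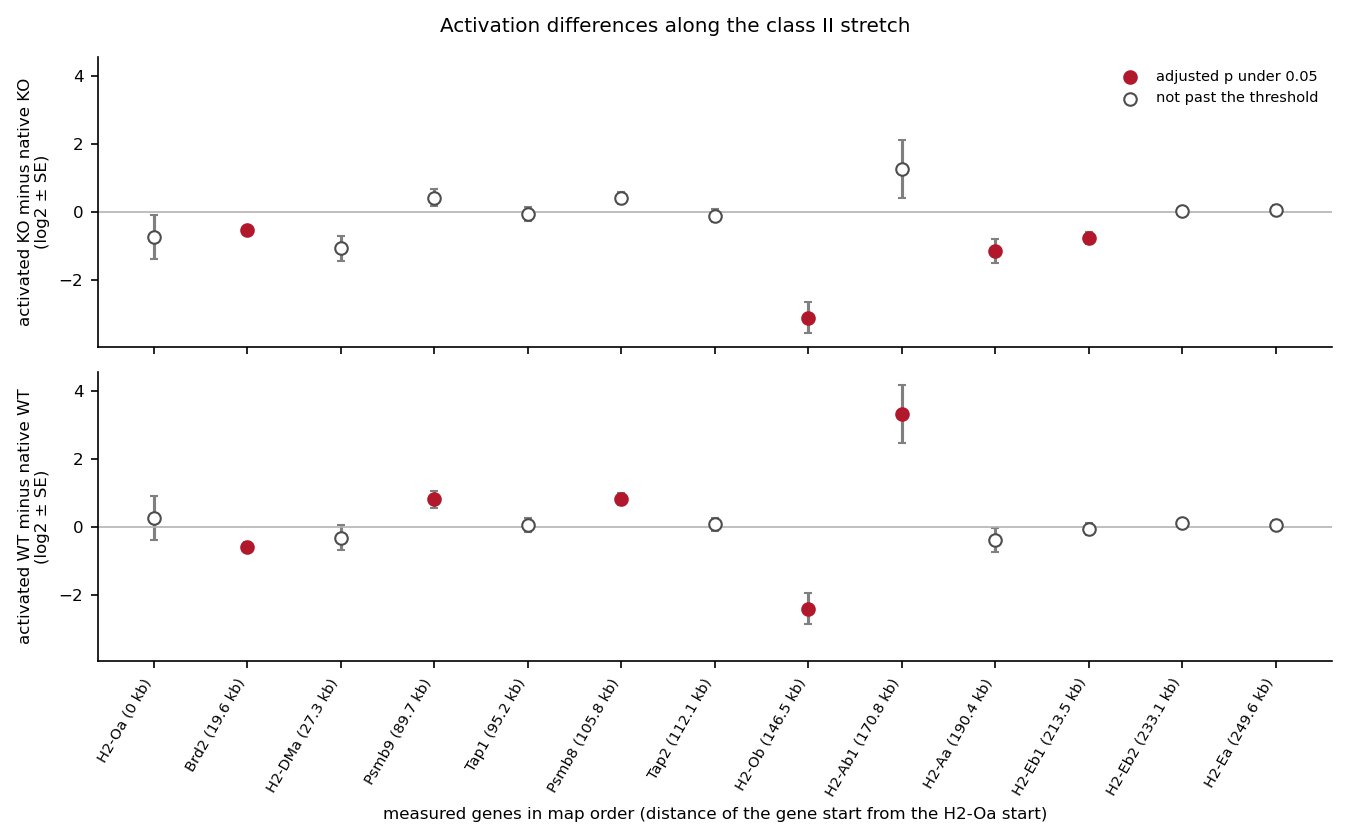
Log2 difference with its standard error, activated KO minus native KO above and activated WT minus native WT below, for the 13 measured genes of the class II stretch in map order, with the distance of each gene start from that of H2-Oa in kb; filled points have an adjusted p under 0.05. H2-Ob lies at -3.10 and -2.40, while its neighbour H2-Ab1 lies at 1.27 and 3.33, and H2-Aa beside it at -1.14 and -0.39.

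Most of the factors that act on these promoters did not pass the test. Of 9 measured transcription factor genes, among them the X box proteins Rfx5, Rfxap and Rfxank and the Y box proteins Nfya, Nfyb and Nfyc, 2 were called lower on activation in KO and 1 in WT, beside 11.4% and 10.9% of all genes, none was called higher, beside 8.72% and 9.72%, and none was called between genotypes. The same shares of all genes apply to the counts of the other lists below, several of which lie near them. The median difference on activation was -0.39 in KO and -0.24 in WT. Irf1, a factor of interferon responses that also acts on the Ciita gene, had 9.53, 9.93 and 8.34 in activated KO and 10.97, 11.31 and 11.16 in native KO. It fell by 1.88 in KO (adjusted p = 0.00408) and by 1.43 in WT (adjusted p = 0.0177), the WT call being lost without native WT array 2 or 3 or activated WT array 3 (adjusted p = 0.053 to 0.075). Spi1, a factor of myeloid and B cells, fell by 1.05 in KO (adjusted p = 0.00282), where activated KO was at background and only native KO array 1 lay above it, so no bound above 0 can be given.

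Among 12 genes of class II peptide loading and turnover, 1 was called higher and 2 lower on activation in KO, and 2 higher and 2 lower in WT. Ifi30, the lysosomal thiol reductase that opens disulfide bonds of antigens, had 11.16, 10.97 and 10.92 in activated KO, 11.25, 10.72 and 11.11 in activated WT, 8.86, 8.56 and 9.11 in native KO, and 8.18, 8.17 and 8.46 in native WT. It rose by 2.17 in KO (adjusted p = 4.76e-06) and by 2.76 in WT (adjusted p = 6.15e-07), in contrast to Cd74 on the same arrays. Cathepsins that trim the invariant chain were lower: Ctsl by 1.39 in KO (adjusted p = 0.00266) and 1.25 in WT (adjusted p = 0.00488), and Ctss by 0.92 in KO (adjusted p = 0.00166). The fall of Ctss in WT (-0.53, adjusted p = 0.0351) was lost in 5 of 12 fits that left out 1 array. Cst3, the cathepsin inhibitor cystatin C, rose by 0.78 in WT (adjusted p = 0.00241).

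The class I pathway served for comparison, since CD8 T cells like most cells express it. Of its 10 measured genes none was at background in any group, 1 was called higher and 2 lower on activation in KO, and 2 higher and 2 lower in WT. Their median activation differences were -0.12 in KO and -0.04 in WT. Erap1, which trims peptides in the endoplasmic reticulum, fell by 0.71 in WT (adjusted p = 0.00943). None of the 10 was called between genotypes.

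Some markers of other cells moved with the native class II values. Lyz2, lysozyme of macrophages and neutrophils, had 9.62, 6.51 and 9.02 in native KO and 7.03, 6.32 and 5.24 in native WT. Cd209a, a lectin of dendritic cells and monocytes, had 7.47, 6.35 and 7.50 in native KO and 6.05, 6.38 and 5.95 in native WT. Spi1 had 6.43, 5.50 and 6.17 in native KO and 5.35, 5.25 and 5.05 in native WT. All 3 were high on native KO arrays 1 and 3, the arrays with high H2-Aa, H2-Ab1 and Cd74, and low on native KO array 2. None of them was called in native KO against native WT with all arrays (adjusted p = 1). Without native KO array 2 all 3 were called higher, Lyz2 by 3.13, Cd209a by 1.35 and Spi1 by 1.09 (adjusted p = 0.031 each), whereas no class II gene was. In that fit 10 of all 19938 genes were called higher. The array left out is the one on which these 3 were low, so the calls follow from that choice and are no separate support. Itgam of the macrophage list and Siglech of the dendritic list were also highest on native KO arrays 1 and 3. Itgam had 6.96, 6.08 and 6.51 in native KO and at most 6.19 in native WT. Siglech had 6.40, 5.97 and 6.56 in native KO and at most 5.83 in native WT, and neither was called. Other markers did not follow: Cd68, the brightest of the macrophage list, had 8.47, 8.80 and 8.48 in native KO and 8.11, 9.0 and 8.20 in native WT. The dendritic integrin Itgax had 6.92, 7.07 and 7.19 in native KO and 6.57, 7.30 and 6.56 in native WT. The B cell receptor chain Cd79b had 9.34, 9.17 and 9.29 in native KO and 9.40, 9.0 and 9.53 in native WT. Cd79a, of the same list, had 6.53, 5.21 and 4.92 in native KO and 5.22, 5.13 and 4.92 in native WT. Only native KO array 1 was above background for it. Native WT array 2 was the highest of the 6 for Cd68 and Itgax, and all 6 values of Cd79b lay between 9.0 and 9.53. Cd68, Itgax and Cd79b were above background on every native array, and which cells express them here was not tested.

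Over the whole marker lists, 8 of 11 macrophage and monocyte genes were at background in native KO and 8 of 11 in native WT, among them Adgre1, Csf1r, Cd14 and C1qa. The summed linear level of that list was 932 to 1594 in native KO and 726 to 994 in native WT. Of 12 dendritic cell genes 7 were at background in each native group, Clec9a among them, and the sums were 7880 to 9482 in native KO and 8293 to 9363 in native WT, mostly from Ccr7, which naive T cells also express. Of 11 B cell genes 8 were at background in native KO and 9 in native WT, with Ms4a1 among them, and the sums were 1069 to 1221 and 1000 to 1206. After culture the macrophage list had 10 of 11 genes at background in both activated groups, the dendritic list 9 of 12 and the B cell list 9 of 11, in the same groups where H2-Aa and Cd74 were at background. The part of such cells in the class II values was not tested.

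On activation in KO the macrophage markers Lyz2 and Itgam fell, by 3.13 (adjusted p = 0.00509; at least 1.82, or 2.19 without activated KO array 3) and 0.92 (adjusted p = 0.00489; at least 0.33 without that array, and no bound above 0 with it), beside the falls of Cd74, H2-Aa and H2-Eb1. Among dendritic markers 4 of 12 were called lower, Cd209a by 1.24 (adjusted p = 0.00655; at least 0.54, or 0.91 without that array) and Ccr7, which fell by 2.14 (adjusted p = 0.0129), among them, and of B cell markers 2 of 11, Cd79b by 0.92 (adjusted p = 0.00227) and Bank1, which was at background in both groups and whose call was lost in 5 of 12 fits that left out 1 array. The other dendritic calls in KO, of Flt3 and Siglech, were each kept in only 8 of 12 fits that left out 1 array. Flt3 was at background in both KO groups, and Siglech had no bound above 0 over all arrays. In WT, where Cd74 was not called, no macrophage marker of 11 was called, 1 dendritic marker (Ccr7) and 2 B cell markers (Cd79b and Bank1). The WT calls of Ccr7 and Bank1 were each lost in 5 of 12 fits that left out 1 array, and that of Cd79b in 9. Of 10 T cell markers, Cd5 and Cd8a were called lower in KO, by 0.98 and 1.12 (adjusted p = 0.00474 and 0.0111), and none was called in WT. With array weights the KO calls of Lyz2, Itgam, Cd209a, Flt3, Spi1, Cd79b, Bank1 and Cd8a were lost (adjusted p = 0.0511 to 0.125). Those of Cd74 and H2-Eb1 were lost as well.

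**Figure D4:**
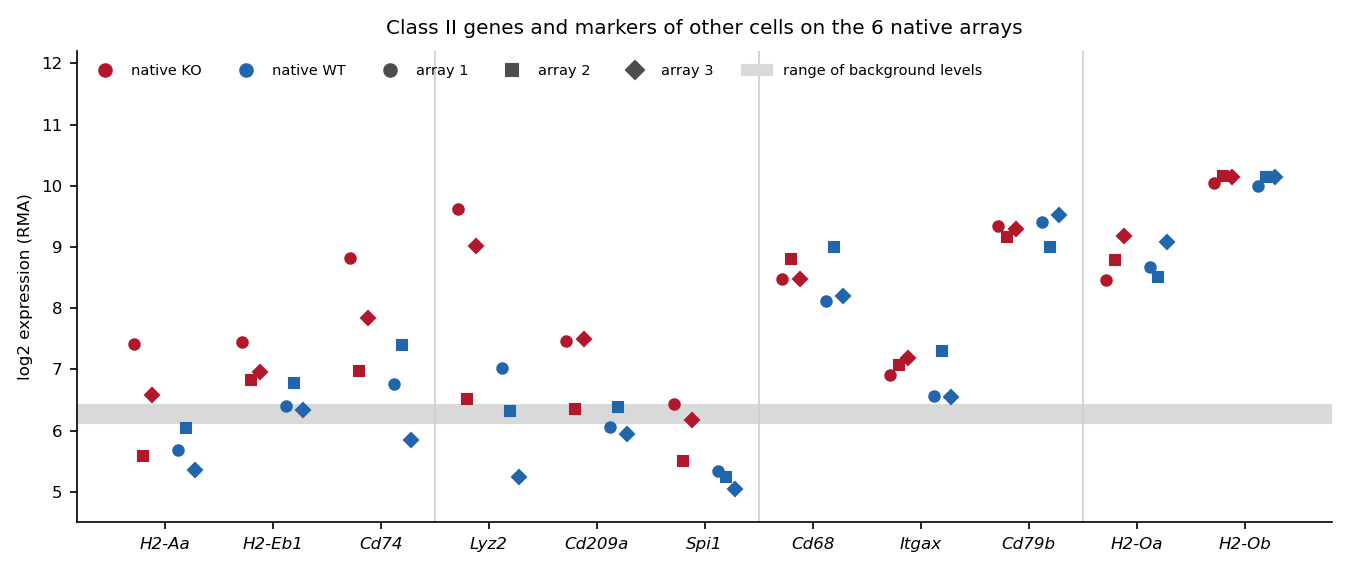
Log2 expression (RMA) on the 6 native arrays of, from left to right between the grey lines, 3 class II genes, 3 markers that moved with them, 3 markers that did not, and the H2-O genes; red is native KO, blue is native WT, symbols mark arrays 1 to 3, and the grey band is the range of background levels. In native KO, circles and diamonds (arrays 1 and 3) lie above squares (array 2) from H2-Aa to Spi1, Cd68 has its square on top at 8.80, and H2-Ob lies between 10.00 and 10.16 on all 6 arrays. Itgam and Siglech, which also moved with the class II genes, are not shown.

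Genes whose pattern came closest to the mean of H2-Aa, H2-Ab1, H2-Eb1 and Cd74, each value taken as its deviation from the mean of its state over 12 arrays, were Plbd1 (r = 0.884), Mpeg1 (0.85), Lyz2 (0.83), Ifitm6 (0.826), Cxcr2 (0.825), Itgam (0.823), S100a8 (0.82) and Ly6a2 (0.819). Of these 8 genes, 7 were at background in both activated groups, the exception being Ly6a2, and Cxcr2 was at background in all 4. Over the 6 native arrays alone the closest genes were others, with 0 of the 8 shared: Hdhd5 (r = 0.997), Cebpe (0.989), Haspin and Klra2 (0.983 each) came first. By levels over the 12 arrays, a measure added after the data had been seen, H2-Ab1 came closest to Rnf216 (r = 0.972) and Naaa (r = 0.955), and H2-Ob to Tox and Irf2bp2 (r = 0.991 each). Tox, a nuclear factor of T cell differentiation, had activation differences of -2.21 in KO (adjusted p = 0.000206) and -1.79 in WT (adjusted p = 0.000889), beside -3.10 and -2.40 for H2-Ob. These ranks come from 19938 genes over 12 arrays in 4 groups, and a high r is reached by many genes that differ between states.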

How the data were processed

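RNA of 12 samples was labelled as biotinylated sense DNA and hybridised to Affymetrix whole-transcript arrays, per the labels' protocols. The authors deposited 1 table of log2 expression values, and the submitters' processing notes name Partek and RMA for it, without versions or options. RMA compresses differences close to background. The table holds 35556 transcript clusters. One gene symbol was given for 21789 of them (21698 matched to RefSeq genes of GRCm38.p6 by Entrez identifier), several for 1621 and none for 12146. The brightest transcript cluster of a gene was kept where there were several (999 genes), which left 19938 genes.

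Group means were fitted over all 12 arrays by limma 3.58.1 under R 4.3.3, using lmFit and a plain eBayes (neither trend nor robust option), so the groups share 1 estimate of the spread per gene, and errors of differences are standard errors of that fit. P-values were adjusted after Benjamini and Hochberg across all 19938 genes, with calls made under 0.05. Bounds set the dim group at the background of each array, or at the gene's own value where higher. The fit was tested on simulated data. Titles call the arrays biological replicates, but the number of mice is not given, so p-values measure the spread between these arrays, and 3 arrays per group limit the precision. The shared spread also carries that of the activated arrays into the native comparison. For H2-Ob the standard deviation was 1.28 in activated KO, 0.06 in native KO and 0.09 in native WT. Fits of only the 2 groups compared also called no gene between genotypes.

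The sample descriptions give KO and WT arrays of the same state and number a shared experiment number, and do not say what an experiment is. Same-numbered native arrays deviated together from their group means (r = 0.58, 0.396 and 0.157). The main fit leaves this pairing out. A fit with the replicate block called no gene between native KO and native WT either. The genes and lists were chosen with earlier results of these data known. All 9 genes are described, and of the other lists up to 4 called genes per comparison, the brightest markers, and the 8 genes closest to the class II mean. Alternatives were an intensity trend, robust variances, array weights, median centring, quantile alignment, a filter on dim genes, the mean of a gene's transcript clusters, all transcript clusters, only the groups compared, blocks, and each array left out. Promoter letters come from RefSeq; no genome was used.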

Additional observations from a re-analysis of the deposited data

How the results depend on the processing

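No gene of the class II group was called between KO and WT, or in the interaction, under any alternative run. H2-Ob was called lower on activation in both genotypes under each of them, and Cd74 and H2-Eb1 in KO under all but array weights (adjusted p = 0.0703 and 0.12). Array weights gave activated KO array 1 a weight of 4.87e-06, which comes close to leaving it out, and the estimate of the weights stopped before it converged. With them H2-Ab1 was called higher in KO activation (3.18, adjusted p = 0.0112). Counts per direction that moved were as follows. For native KO higher than native WT, 0 genes became 1 with an intensity trend, 3 with array weights, 1 with dim genes left out, 2 over all transcript clusters and 14 in the native arrays alone with the replicate block, a fit added after the data had been seen, in which the class II group still had 0. In KO activation, genes higher were 2643 under quantile alignment, and genes lower were 4980 over all transcript clusters and 1394 with only the 2 groups; class II genes called were 1 higher and 1 lower with array weights, in place of 0 and 4. In WT activation, genes higher were 3623 with array weights and 2909 under quantile alignment, and genes lower were 3986 with array weights and 4930 over all transcript clusters. With each array left out in turn, genes called ranged from 0 to 10 for native KO higher, 1223 to 2668 higher and 1535 to 2683 lower in KO activation, and 1350 to 2656 higher and 1439 to 3219 lower in WT activation; class II genes ranged from 0 to 1 higher and 3 to 5 lower in KO, and 0 to 1 higher and 1 to 1 lower in WT. Signs turned only for differences that were not called. Array weights gave -0.0355 for H2-Aa, 0.31 for H2-Ab1, -0.315 for Cd74, 0.288 for H2-DMa, 0.764 for H2-Oa and 0.687 for H2-Ob in activated KO against WT; 0.706 for H2-Oa and -0.0301 for Ciita in KO activation; and 0.0948 for H2-DMa, 0.638 for H2-Oa and 0.65 for H2-Ob in the interaction. Median centring gave 0.000875 for H2-Eb1 in WT activation and -0.00638 for H2-Ob in native KO against WT, and quantile alignment gave 0.0258 for H2-Eb1 in WT activation. With single arrays left out, activated KO against WT ranged from -0.062 to 0.178 for H2-Aa, -0.0706 to 0.35 for Cd74 and -0.00288 to 0.17 for Ciita; native KO against WT from -0.133 to 0.227 for H2-Oa and -0.0307 to 0.0552 for H2-Ob; KO activation from -1.63 to 0.0743 for H2-Oa and -0.00719 to 0.166 for Ciita; and WT activation from -0.154 to 0.0662 for H2-Eb1 and -0.0895 to 0.5 for H2-Oa. Beyond what their construction changes, the cause of these shifts was not tested. The filter on dim genes left H2-Aa and Ciita untested and, with fewer genes to adjust over, called H2-DMa lower in KO activation (-1.06, adjusted p = 0.0345). The shared experiment number also pairs activated KO with activated WT arrays of the same number, where r was 0.694, -0.0166 and -0.013. A block by experiment called no gene between activated KO and activated WT. Native and activated arrays share no experiment number, and r between those of the same number ran from -0.139 to 0.335. The replicate block called 1891 genes higher and 2523 lower in KO activation and 2101 and 2397 in WT. It changed no call of a class II gene. Values near the olfactory background limit H2-Aa, Cd74 and Ciita most, and then H2-Eb1. On activated KO array 3 the background also limits H2-Ab1, H2-DMa, H2-Oa and H2-Ob.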
